A study of Mus musculus with 6 samples.

Results

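Cholesterol synthesis and homeostasis genes were read in bone marrow of Cbx2-/- mice and of wild-type mice. The 29 genes were chosen by name, by their place in the pathway, and all 29 were found among the 22838 genes of the deposited table. They comprise 8 genes of the mevalonate and isoprenoid steps, 11 of the squalene and sterol steps, 4 of the control of the transcription factor SREBP2, 3 of sterol transport and 3 of storage and efflux. Pathway steps whose genes are not among these were not analysed here.

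RNA came from tibial and femoral marrow of 3 Cbx2-/- mice and 3 wild-type mice, all 3 weeks old and of the strain 129/C57BL/6, per the labels. The Cbx2-/- animals averaged 4.0 g and the wild-type animals 12.3 g in body weight, so the genotypes also differ in body size at the same age. Cbx2 encodes a chromodomain subunit of Polycomb repressive complex 1. The labels do not describe the allele, and Cbx2 was still read at 2.11, 1.87 and 1.88 FPKM in the Cbx2-/- libraries, against 2.90, 3.83 and 2.75 FPKM in the wild-type libraries (limma adjusted p = 0.0558, where 0.05 was the threshold). FPKM stands for fragments per kilobase of transcript and per mapped fragments of the library, so it can be compared between genes, and it is a share of each library. In whole marrow a lower value cannot be told apart as fewer cells of an expressing type or as less RNA per cell.

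Cells build cholesterol from acetyl-CoA by way of mevalonate, which is turned into isoprenoid units, then into squalene, and then into lanosterol and cholesterol. SREBP2, encoded by Srebf2, is held in the endoplasmic reticulum with its escort SCAP by the INSIG proteins when sterol is plentiful, and is released to switch on synthesis and uptake genes when sterol is scarce. Sterol in excess is esterified for storage or exported by ABC transporters, whose genes are switched on by the oxysterol-sensing LXR receptors. Dividing blood cell precursors draw on synthesis for new membrane, and macrophages take up and export much cholesterol.

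Promoter windows help to place the genes whose control is described below. RefSeq windows (GRCm38.p6, from 250 bases before the start to 50 after it) were held for 23 of the 29 genes, and the genes with none in the table are Fdft1, Sqle, Fdps, Stard4, Npc1 and Abcg1. The pattern TCACNCCAC, a form of the sterol regulatory element that SREBP proteins bind, was found on either strand in a window of 1 of these 23 genes, Hmgcs1, and of 1.44% of the 27025 genes with a window. The shorter TCACNCC, which lies inside the longer pattern and was searched after the first result was seen, was found in 5 of 23, namely Acat2, Hmgcs1, Msmo1, Srebf2 and Insig2, against 17.58% of all genes. CCAAT, the box bound by NF-Y, was found in 20 of 23 (41.06% of all genes), and GGGCGG, the box bound by Sp1, in 21 of 23 (38.2% of all genes). The windows of the 23 genes held 45.3% to 71.7% G and C, most of them above the 53.8% over all windows. How far this bears on the share with GGGCGG was not tested. A match here describes letters and does not show binding. The 250 bases before the start are shown for Srebf2 and Idi1, which were lower in Cbx2-/- marrow, and for Hmgcs1, which holds the longer pattern and did not pass the test. Capitals mark matches of these patterns on either strand.
Srebf2, chr15:82147019-82147268, plus strand: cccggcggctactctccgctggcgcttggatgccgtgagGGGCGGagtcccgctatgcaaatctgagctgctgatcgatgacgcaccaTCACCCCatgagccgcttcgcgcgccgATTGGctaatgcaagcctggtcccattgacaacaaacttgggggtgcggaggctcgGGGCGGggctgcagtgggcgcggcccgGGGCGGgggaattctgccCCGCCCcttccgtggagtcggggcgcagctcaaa
Idi1, chr13:8885356-8885605, plus strand: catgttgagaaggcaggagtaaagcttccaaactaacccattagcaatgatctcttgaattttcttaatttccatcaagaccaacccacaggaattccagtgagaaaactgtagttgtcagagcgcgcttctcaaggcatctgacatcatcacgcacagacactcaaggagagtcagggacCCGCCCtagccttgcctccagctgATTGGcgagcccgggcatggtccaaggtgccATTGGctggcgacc
Hmgcs1, chr13:119690101-119690350, plus strand: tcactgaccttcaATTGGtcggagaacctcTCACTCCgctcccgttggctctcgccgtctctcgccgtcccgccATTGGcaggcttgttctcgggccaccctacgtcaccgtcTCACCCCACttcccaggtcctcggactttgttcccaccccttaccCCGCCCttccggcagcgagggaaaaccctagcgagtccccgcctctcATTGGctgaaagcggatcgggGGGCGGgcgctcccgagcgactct
In Hmgcs1 the longer sterol pattern begins 137 bases before the start, between CCAAT boxes on the minus strand at 176 and 45 bases before it. In Srebf2 the short pattern begins 162 bases before the start, followed by a CCAAT box on the minus strand at 135 bases before it. Neither sterol pattern was found in the Idi1 window, which holds minus-strand CCAAT boxes at 45 and 14 bases before the start. The start meant here is that of the RefSeq window. GENCODE positions, used below, begin at 8885501 for Idi1 and 82147181 for Srebf2, which lie within the bases shown. For Hmgcs1 the GENCODE position begins at 119690379, after the bases shown.

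Levels differed more between genes than between genotypes. In Cbx2-/- marrow the genes ran from 1.25 FPKM for Lss to 57.3 FPKM for Npc2 on average, and in wild-type marrow from 0.808 FPKM for Hsd17b7 to 61.4 FPKM for Npc2. Npc2, the soluble sterol carrier of lysosomes, averaged 57.3 ± 3.92 FPKM in Cbx2-/- and 61.4 ± 7.16 FPKM in wild-type marrow (SD, n = 3 each). Next by mean came Fdps, which makes farnesyl diphosphate, at 31.4 ± 10.8 FPKM in Cbx2-/- and 41.6 ± 14.3 FPKM in wild-type marrow. Its wild-type range overlapped that of Npc2, and in wild-type replicate 1 Fdps was above Npc2 (58.1 and 53.4 FPKM). In wild-type marrow Srebf2 (24.7 ± 5.27 FPKM), Ebp (20.9 ± 1.75 FPKM), Pmvk (17.6 ± 0.262 FPKM) and Scap (15.7 ± 0.927 FPKM) followed, and the ranges of Srebf2 and Ebp overlapped. At the low end, Lss and Hsd17b7 had overlapping ranges of 0.701 to 1.43 and 0.512 to 1.14 FPKM in wild-type marrow. Lss encodes lanosterol synthase, which closes the sterol rings, and Hsd17b7 a keto-reductase of the later steps.

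**Figure D1:**
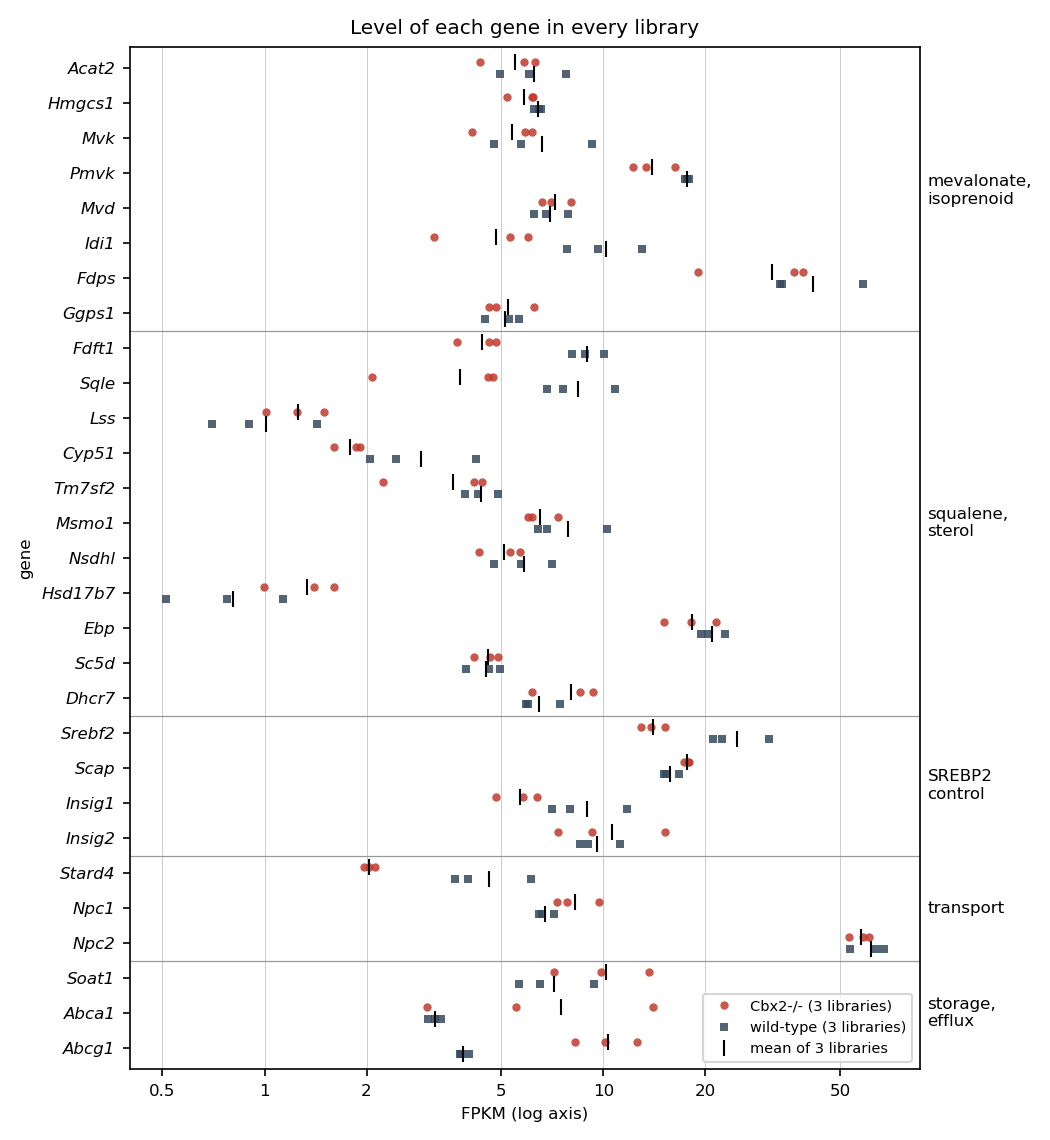
FPKM of the 29 genes (log axis) in the 3 Cbx2-/- libraries (circles) and the 3 wild-type libraries (squares), with group means as vertical ticks and genes grouped by role. The Cbx2-/- points of Idi1, Fdft1, Sqle, Srebf2 and Stard4 lie left of all wild-type points, and those of Abcg1 lie right of them.

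Of the 29 genes, 5 fell in Cbx2-/- marrow, 1 rose and 23 did not pass (limma on log2(FPKM + 1), adjusted p under 0.05 over 12006 tested genes). The 5 that fell were Idi1, Fdft1, Sqle, Srebf2 and Stard4, by about 1.77-fold to 2.25-fold, and the 1 that rose was Abcg1, by 2.67-fold. The share called, 20.7%, is near the 17.1% called among all tested genes. Called as lower were 17.2% of the 29, against 8.31% of all tested genes, and called as higher were 3.45%, against 8.8%. The median difference was -0.16 (log2) over the 29 genes and 0.02 over all tested genes. All Cbx2-/- values lay below all wild-type values in 9 of the 29 genes, where this held for 18.2% of tested genes, and above them in 3, where this held for 21.4%. For each of these 12 genes an exact two-sided permutation test returned p = 0.1, and no smaller p can be had from 3 against 3 libraries.

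**Figure D2:**
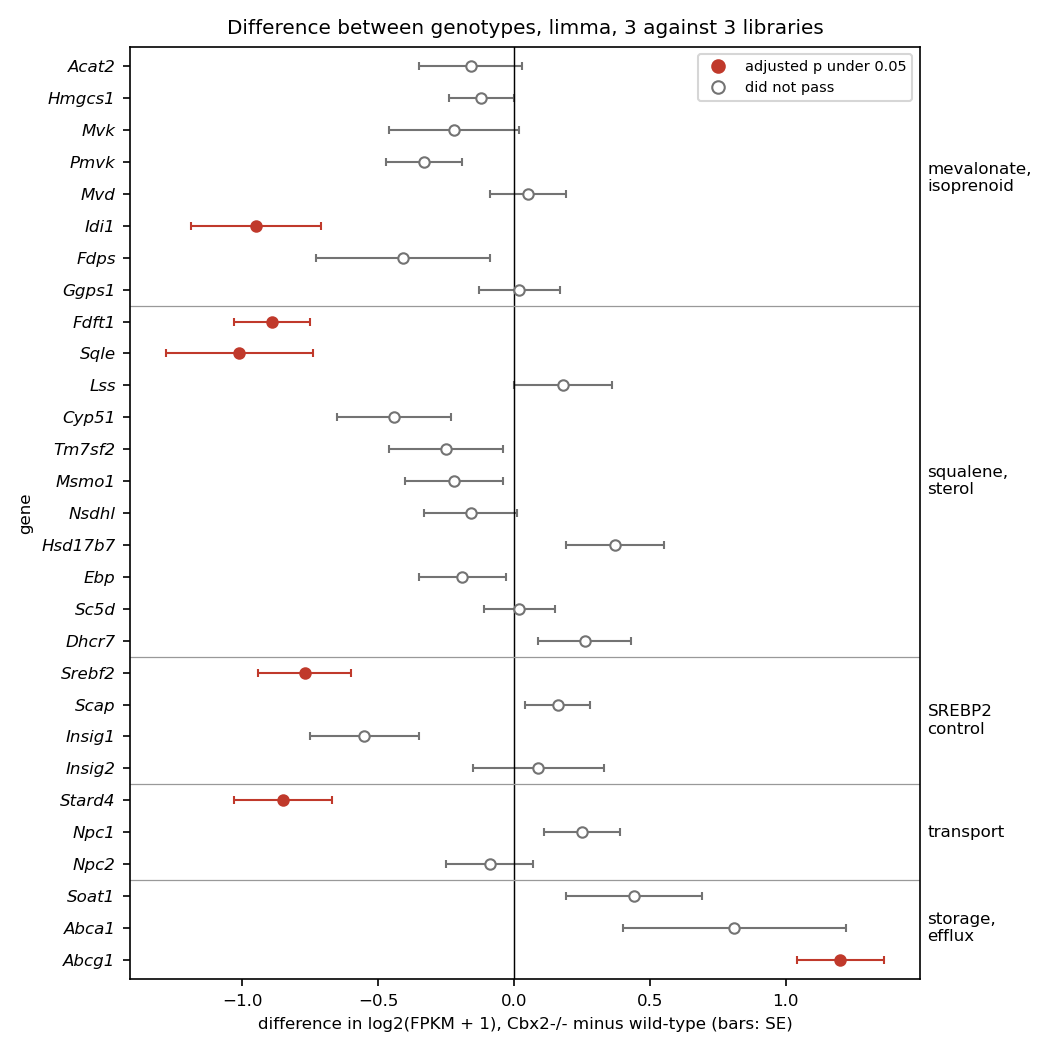
Difference in log2(FPKM + 1), Cbx2-/- minus wild-type, with its SE from limma, for the 29 genes grouped by role. Filled red points passed an adjusted p of 0.05: 5 lie left of 0 between -1.01 and -0.77, and Abcg1 lies at 1.20.

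In the mevalonate and isoprenoid steps, 1 of 8 genes fell and 7 did not pass, with a median difference of -0.19 (log2). The share called was 12.5%, against 17.1% of all tested genes. The gene that fell was Idi1, the isomerase that makes the reactive isoprenoid unit (chromosome 13, 8885501 to 8892451, plus strand, GENCODE vM21 on GRCm38). Idi1 was read at 5.99, 5.29 and 3.17 FPKM in Cbx2-/- libraries, against 13.0, 9.67 and 7.82 FPKM in wild-type libraries. The groups did not overlap, with the lowest value in Cbx2-/- replicate 3 and the highest in wild-type replicate 1. The difference was -0.95 ± 0.24 (log2, SE, limma adjusted p = 0.033), a 2.11-fold lower mean. Without wild-type replicate 1, 2 or 3 the limma adjusted p was 0.123, 0.1 and 0.0545, and the difference stayed between -1.11 and -0.77.

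The genes before and after Idi1 in this branch did not pass. Hmgcs1, whose product condenses acetyl units into the precursor of mevalonate, was at 6.14, 5.21 and 6.18 FPKM in Cbx2-/- and 6.54, 6.45 and 6.26 FPKM in wild-type libraries. These groups were separate but close, with a difference of -0.12 ± 0.12 (log2, SE, limma adjusted p = 0.564). Pmvk, the kinase that adds the next phosphate to phosphomevalonate, was at 13.4, 16.3 and 12.2 FPKM in Cbx2-/- and 17.4, 17.9 and 17.6 FPKM in wild-type libraries, also without overlap (limma adjusted p = 0.161). Acat2, the cytosolic thiolase, averaged 5.49 ± 1.02 FPKM in Cbx2-/- and 6.25 ± 1.40 FPKM in wild-type marrow, and the groups overlapped (SD, n = 3 each). Mvk, mevalonate kinase, overlapped too, at 5.37 ± 1.12 FPKM in Cbx2-/- and 6.57 ± 2.38 FPKM in wild-type marrow. Mvd (the decarboxylase) averaged 7.20 ± 0.751 FPKM in Cbx2-/- and 6.95 ± 0.836 FPKM in wild-type marrow. Ggps1, which extends farnesyl diphosphate for protein prenylation, averaged 5.21 ± 0.896 FPKM in Cbx2-/- and 5.13 ± 0.605 FPKM in wild-type marrow.

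Fdps had the highest level and the largest SE of the 19 synthesis genes. It was read at 38.8, 36.5 and 19.0 FPKM in Cbx2-/- libraries and at 58.1, 33.6 and 33.2 FPKM in wild-type libraries. Cbx2-/- replicates 1 and 2 lay between wild-type replicate 1 and the other wild-type libraries, and Cbx2-/- replicate 3 lay below all others. The difference was -0.41 ± 0.32 (log2, SE, limma adjusted p = 0.428).

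In the squalene and sterol steps, 2 of 11 genes fell and 9 did not pass, with a median difference of -0.19 (log2). The share called, 18.2%, was near the 17.1% of all tested genes. The 2 that fell act next to each other at the entry to sterol synthesis. With a share this near the background, their place in the pathway is given as description only. Fdft1, squalene synthase, which joins farnesyl units in the first step committed to sterols, was at 4.61, 4.83 and 3.70 FPKM in Cbx2-/- libraries, against 10.1, 8.79 and 8.05 FPKM in wild-type libraries. The groups were far apart relative to their spread, with a difference of -0.89 ± 0.14 (log2, SE, limma adjusted p = 0.00659) and a 2.05-fold lower mean. This call held, with a limma adjusted p of at most 0.0391, in every alternative fit with more than 1 library in each group. Fdft1 (chromosome 14, 63145150 to 63179578, minus strand) shares 774 exon bases with Ctsb, a cathepsin gene on the opposite strand, and no source used here says whether strand was taken into account in the quantification. In the deposited table the locus of Fdft1 is wider than the gene, from 63122461 to 63179578. Ctsb was at 153, 143 and 151 FPKM in Cbx2-/- libraries and 175, 171 and 157 FPKM in wild-type libraries, lower without overlap. It averaged 149 ± 5.13 FPKM in Cbx2-/- and 167 ± 9.51 FPKM in wild-type marrow (SD, n = 3 each, limma adjusted p = 0.526). Whether reads of Ctsb enter the Fdft1 value was not tested. The same limit holds for Idi1, which shares 323 exon bases with Gm48574 on the opposite strand, and for Hmgcs1, Ggps1, Lss, Cyp51, Scap and Npc1, which also share exon bases with genes of the opposite strand. Fdps shares 1124 exon bases with Gm43738, and Tm7sf2 532 with Vps51, on the same strand.

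Sqle (chromosome 15, 59315077 to 59331192, plus strand) encodes squalene epoxidase, a rate-controlling oxygenase that acts on the product of squalene synthase. It was read at 4.71, 4.56 and 2.07 FPKM in Cbx2-/- libraries, against 10.8, 7.61 and 6.84 FPKM in wild-type libraries. All Cbx2-/- values were below all wild-type values, and Cbx2-/- replicate 3 stood lowest. The difference was -1.01 ± 0.27 (log2, SE, limma adjusted p = 0.0386), a 2.23-fold lower mean and the lowest difference among the 29 genes. The call depended on single libraries: the limma adjusted p was 0.0536 without Cbx2-/- replicate 1 and 0.141, 0.101 and 0.0794 without wild-type replicate 1, 2 and 3.

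After squalene epoxidase no gene passed, and the differences took both signs. Cyp51, the demethylase of lanosterol, was at 1.91, 1.60 and 1.86 FPKM in Cbx2-/- libraries and at 4.2, 2.45 and 2.04 FPKM in wild-type libraries, separate groups with a difference of -0.44 ± 0.21 (log2, SE, limma adjusted p = 0.183). Lss averaged 1.25 ± 0.246 FPKM in Cbx2-/- and 1.01 ± 0.374 FPKM in wild-type marrow. Tm7sf2, a sterol reductase gene, averaged 3.59 ± 1.18 FPKM in Cbx2-/- and 4.34 ± 0.502 FPKM in wild-type marrow. Msmo1, the methylsterol oxidase gene, averaged 6.495 ± 0.747 FPKM in Cbx2-/- and 7.83 ± 2.09 FPKM in wild-type marrow. Nsdhl, the gene of the decarboxylating dehydrogenase, averaged 5.10 ± 0.721 FPKM in Cbx2-/- and 5.83 ± 1.16 FPKM in wild-type marrow. The groups of Lss and of these 3 genes overlapped.

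Among the genes of the last steps, Hsd17b7, Sc5d and Dhcr7 had higher means in Cbx2-/- marrow and Ebp a lower one, none past the threshold. Hsd17b7 was at 1.40, 0.996 and 1.60 FPKM in Cbx2-/- and 1.14, 0.512 and 0.775 FPKM in wild-type libraries, a difference of 0.37 ± 0.18 (log2, SE, limma adjusted p = 0.201). Dhcr7, the reductase that yields cholesterol, was at 8.52, 9.34 and 6.17 FPKM in Cbx2-/- and 7.43, 5.90 and 6.00 FPKM in wild-type libraries (limma adjusted p = 0.339). Without Cbx2-/- replicate 3, Dhcr7 was called as higher, by 0.42 (log2, limma adjusted p = 0.0441). Ebp, a sterol isomerase gene on the X chromosome, averaged 18.2 ± 3.19 FPKM in Cbx2-/- and 20.9 ± 1.75 FPKM in wild-type marrow, and Sc5d, the sterol desaturase gene, 4.56 ± 0.374 FPKM in Cbx2-/- and 4.49 ± 0.528 FPKM in wild-type marrow. Over all 19 synthesis genes, 3 fell, 0 rose and 16 did not pass, a share called of 15.8%, near the 17.1% of all tested genes. The difference was negative in 13 and positive in 6, and the highest was that of Hsd17b7.

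Of the 4 genes of SREBP2 control, 1 fell and 3 did not pass, a share called of 25.0%, against 17.1% of all tested genes. Srebf2 (chromosome 15, 82147181 to 82205379, plus strand) was read at 13.8, 15.1 and 12.9 FPKM in Cbx2-/- libraries, against 30.8, 21.0 and 22.4 FPKM in wild-type libraries. The Cbx2-/- values lay close together and all below the wild-type values, among which replicate 1 stood highest. The difference was -0.77 ± 0.17 (log2, SE, limma adjusted p = 0.0219), a 1.77-fold lower mean. The limma adjusted p was 0.0719 without Cbx2-/- replicate 1, 0.0797 without wild-type replicate 1 and 0.0642 without wild-type replicate 3.

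Insig1, the INSIG gene that is itself a target of SREBP2, was at 4.80, 5.79 and 6.37 FPKM in Cbx2-/- and 11.7, 7.03 and 7.97 FPKM in wild-type libraries. These groups did not overlap, but the difference of -0.55 ± 0.20 (log2, SE) did not pass (limma adjusted p = 0.0923). Without Cbx2-/- replicate 3 the limma adjusted p of Insig1 was 0.0434. Its paralog Insig2 was at 9.28, 7.35 and 15.2 FPKM in Cbx2-/- and 8.52, 11.2 and 8.98 FPKM in wild-type libraries, overlapping groups with the highest and the lowest value both in Cbx2-/- libraries (limma adjusted p = 0.849). Scap, the escort gene, was at 17.9, 17.8 and 17.2 FPKM in Cbx2-/- and 15.3, 15.04 and 16.8 FPKM in wild-type libraries, slightly higher without overlap, by 0.16 ± 0.12 (log2, SE, limma adjusted p = 0.422).

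Of the 3 transport genes, Stard4 fell while both Niemann-Pick genes did not pass, a share called of 33.3%, against 17.1% of all tested genes. Stard4, a carrier of sterol through the cytosol that is known as an SREBP2 target, was at 1.96, 2.04 and 2.11 FPKM in Cbx2-/- libraries, against 6.13, 3.98 and 3.65 FPKM in wild-type libraries. The Cbx2-/- values were nearly equal and the wild-type values spread upward to replicate 1. The difference was -0.85 ± 0.18 (log2, SE, limma adjusted p = 0.0166), a 2.25-fold lower mean, with a limma adjusted p of 0.0587 without Cbx2-/- replicate 1. Npc1, the membrane protein that exports cholesterol from lysosomes, was at 7.78, 7.32 and 9.68 FPKM in Cbx2-/- and 6.60, 7.16 and 6.45 FPKM in wild-type libraries, higher without overlap by 0.25 ± 0.14 (log2, SE, limma adjusted p = 0.259). Npc2 had overlapping groups (limma adjusted p = 0.743).

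The 3 storage and efflux genes had differences above 0, but only Abcg1 passed, a share called of 33.3%, against 17.1% of all tested genes. Abcg4, an ABC transporter gene of the related list given below, lay the other way and did not pass. It was at 9.49, 14.8 and 3.30 FPKM in Cbx2-/- and 26.4, 19.6 and 21.7 FPKM in wild-type libraries, without overlap (-1.39 ± 0.42, log2, SE, limma adjusted p = 0.0584). Abcg1 (chromosome 17, 31057675 to 31117988, plus strand), which exports cholesterol to high-density lipoprotein, was at 10.1, 8.24 and 12.5 FPKM in Cbx2-/- libraries, against 3.79, 4.02 and 3.76 FPKM in wild-type libraries. All Cbx2-/- values were above all wild-type values, and the wild-type values were nearly equal. The difference was 1.20 ± 0.16 (log2, SE, limma adjusted p = 0.00332). The call held, with a limma adjusted p of at most 0.0229, in every alternative fit with more than 1 library in each group.

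Abca1, the exporter to lipid-poor apolipoprotein and like Abcg1 an LXR target, was at 5.53, 3.02 and 14.0 FPKM in Cbx2-/- libraries and 3.04, 3.31 and 3.18 FPKM in wild-type libraries. Cbx2-/- replicate 3 was high and replicate 2 was below every wild-type value, so the difference of 0.81 ± 0.41 (log2, SE) did not pass (limma adjusted p = 0.217). Without Cbx2-/- replicate 2 it was 1.24 (limma adjusted p = 0.0359). Soat1, the enzyme that esterifies cholesterol for storage, was at 9.84, 7.14 and 13.6 FPKM in Cbx2-/- and 6.496, 9.36 and 5.64 FPKM in wild-type libraries, overlapping groups with a difference of 0.44 ± 0.25 (log2, SE, limma adjusted p = 0.265). All 3 storage and efflux genes had their highest value of the 6 libraries in Cbx2-/- replicate 3, the library that was highest for 26.0% of all tested genes.

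**Figure D3:**
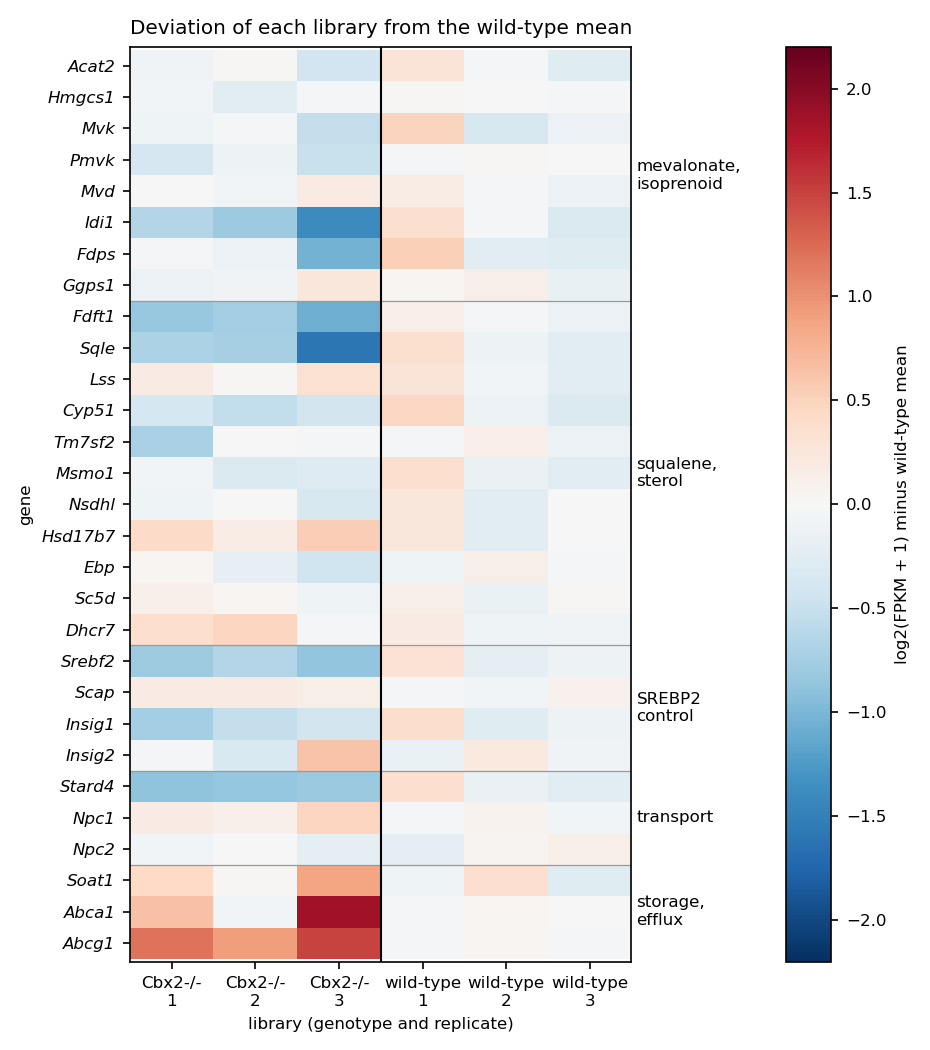
Log2(FPKM + 1) of each of the 29 genes in each library minus the mean of the 3 wild-type libraries (blue lower, red higher), with genes grouped by role. The strongest blue is in Cbx2-/- replicate 3 at Sqle and Idi1, the strongest red in the same library at Abca1 and Abcg1, and wild-type replicate 1 is red through most synthesis steps.

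Single libraries stood apart in both groups. Cbx2-/- replicate 3 had the lowest value of the 6 libraries in 9 of the 19 synthesis genes, against 33.7% of all tested genes. Its median deviation from the wild-type mean over these 19 genes was -0.35 (log2), against -0.07 in Cbx2-/- replicates 1 and 2. Over all tested genes the median deviation was -0.04 in Cbx2-/- replicate 3, against 0.05 and 0.06 in replicates 1 and 2. Summed FPKM was also lowest in Cbx2-/- replicate 3 (599601), and how far this bears on its deviations was not tested. Wild-type replicate 1 had the highest value of the 6 libraries in 11 of the 19, against 15.3% of all tested genes, with a median deviation of 0.25. Among the wild-type libraries alone, replicate 1 was highest in 15 of the 19 synthesis genes and in 36.9% of all tested genes. Replicate 1 of each genotype held Y-linked transcripts (summed FPKM 31.1 in both) and the others at most 0.087 FPKM, and the labels do not give the sex. Cbx2-/- replicates 1 and 2 both held skeletal muscle transcripts (given with the markers). With both left out, the differences rested on Cbx2-/- replicate 3 alone, which gives no spread, so no call is given. They were -1.40 for Idi1, -1.08 for Fdft1, -1.59 for Sqle, -0.87 for Srebf2, -0.82 for Stard4 and 1.48 for Abcg1 (log2). Between the libraries with Y-linked transcripts, and then between the libraries without them, the difference was -1.0 and -0.92 for Idi1, -0.98 and -0.85 for Fdft1, -1.05 and -0.99 for Sqle, -1.10 and -0.60 for Srebf2, -1.27 and -0.65 for Stard4, and 1.21 and 1.19 for Abcg1 (log2).

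Other genes of sterol and isoprenoid handling were read from a list of 40 made by function, of which 37 were tested. Of these, 2 rose, 1 fell and 34 did not pass, a share called of 8.11%, under the background of 17.1%. The lowest limma adjusted p that did not pass was 0.0501, for Soat2. All Cbx2-/- values lay above all wild-type values in 10 of the 37 genes and below them in 7, against 21.4% and 18.2% of all tested genes. Nceh1, an esterase that frees stored cholesterol in macrophages, rose to 7.10, 5.51 and 6.83 FPKM in Cbx2-/- libraries, against 3.98, 4.39 and 3.30 FPKM in wild-type libraries (0.61 ± 0.15, log2, SE, limma adjusted p = 0.0282). Stard5, a sterol carrier gene of the family of Stard4, rose to 7.96, 6.93 and 10.5 FPKM in Cbx2-/-, against 4.93, 5.51 and 4.98 FPKM in wild-type libraries (limma adjusted p = 0.0388). Lbr, a nuclear envelope protein with sterol reductase activity, fell to 74.3, 72.2 and 64.9 FPKM in Cbx2-/-, against 114, 124 and 96.3 FPKM in wild-type libraries (limma adjusted p = 0.0339). None of these groups overlapped, but each call was lost without wild-type replicate 1, 2 or 3, with a limma adjusted p of 0.0954, 0.0647 and 0.11 for Nceh1, 0.138, 0.102 and 0.126 for Stard5, and 0.136, 0.146 and 0.0645 for Lbr. Without Cbx2-/- replicate 1 it was 0.1, 0.0911 and 0.087 for Nceh1, Stard5 and Lbr, and without Cbx2-/- replicate 2 it was 0.0617 for Lbr. The LXR genes Nr1h2 and Nr1h3 did not pass (limma adjusted p = 0.647 and 0.657).

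Marker genes of several marrow cell types differed between the genotypes, which cannot be told apart as a change of cell numbers or of RNA per cell. Over all tested genes, 18.2% were lower and 21.4% higher in every Cbx2-/- library than in any wild-type library. All 10 proliferation genes were lower in this way. Their summed FPKM was 682, 732 and 369 in Cbx2-/- libraries, against 1107, 1050 and 1176 in wild-type libraries. Cbx2-/- replicate 3 was the lowest here, as it was for 33.7% of all tested genes and for Idi1, Fdft1, Sqle and Srebf2 among the 5 genes that fell, while Stard4 was lowest in Cbx2-/- replicate 1. All 10 early B cell markers were lower without overlap too (summed FPKM 106 to 207 in Cbx2-/- and 989 to 1243 in wild-type libraries), as were 8 of 9 erythroid markers (1174 to 2041 in Cbx2-/- and 2783 to 3360 in wild-type libraries). Of the macrophage markers found, 8 of 10 were higher without overlap (summed FPKM 815 to 1215 in Cbx2-/- and 571 to 661 in wild-type libraries), with the highest sum in Cbx2-/- replicate 3. Neutrophil markers (7 of 9), adipocyte markers (7 of 8) and endothelial markers (6 of 7) were higher without overlap, and all 8 osteoblast markers were lower without overlap. Summed skeletal muscle markers were at 409, 452 and 13.8 FPKM in Cbx2-/- replicates 1, 2 and 3, against 23.3 to 33.8 FPKM in wild-type libraries. No marker of these lists was at 0 in all libraries, and their part in the results on sterol genes was not tested. Hepatocyte markers, read as a check for liver RNA, summed to at most 0.31 FPKM in any library, with Ttr and Serpina1c at 0 in all.

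**Figure D4:**
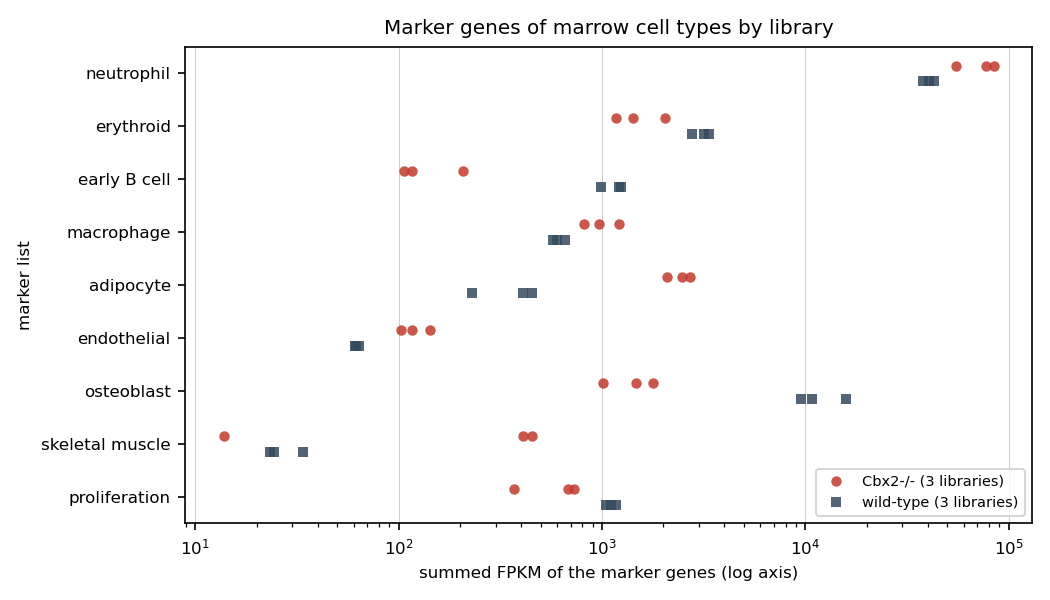
Summed FPKM (log axis) of marker genes of marrow cell types, skeletal muscle and proliferation in the 3 Cbx2-/- libraries (circles) and the 3 wild-type libraries (squares). The groups are separate for every list shown except skeletal muscle, where Cbx2-/- replicates 1 and 2 lie far to the right of the other 4 libraries.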

How the data were processed

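Stranded mRNA libraries were sequenced single-end over 50 bases with a HiSeq 1000, per the labels' protocols. FastQC 0.11.5, TopHat2 2.1.0, Cufflinks 2.2.1 and mm10 appear, per the submitters' processing notes, with no roles, settings or annotation. The authors deposited 1 table of FPKM values per gene and library, with no read counts. Every member's quantification status, a text column of the deposited table, was OK, and 12 columns of confidence limits, equal at both ends, were not used. The sources used here give no total of reads. Values under 0.15 FPKM, compared gene by gene, placed the libraries at roughly 0.908 to 1.2 times the depth of wild-type replicate 1, by their most frequent ratio. Summed FPKM ranged from 599601 to 741192. The labels give 3 mice per genotype and name no batch.

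Values were analysed as log2(FPKM + 1), which understates changes of low genes. A gene was tested if 3 or more libraries held 1 FPKM or more, which gave 12006 genes, and all 29 members passed this filter. Genotypes were compared with limma 3.58.1 (R 4.3.3, two-sided, eBayes with its trend option, no covariate), and p-values were adjusted by Benjamini-Hochberg over the 12006 genes. Alternatives were other pseudocounts (0.1 and 0.5), filters, scalings and limma settings, a replicate block, a term for Y-linked transcripts, and libraries left out. Folds are ratios of mean FPKM. The members, lists and alternatives were chosen with earlier results of these data known. All members are named, and of the related list up to 8 that passed, with Nr1h2, Nr1h3, Abcg4 and Soat2 beside them. Deviations of same-numbered libraries of the genotypes had correlations of 0.194, -0.179 and -0.103, within the -0.26 to 0.274 of differently numbered ones. Replicate numbers were therefore not treated as pairs. The 0.194 is that of replicate 1, the libraries with Y-linked transcripts. Positions are from GENCODE vM21 (GRCm38), counted from 1, and every member's position overlapped its locus in the deposited table.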

Additional observations from a re-analysis of the deposited data

How the results depend on the processing

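The fall of Fdft1 and the rise of Abcg1 kept their call in every alternative with more than 1 library in each group. The fit with Cbx2-/- replicates 1 and 2 left out is not counted for this. All 6 called genes kept their direction in every fit. Members called lower numbered 5 as reported, 3 with no filter on low values (Idi1 and Sqle lost, limma adjusted p = 0.0728 and 0.0843) and 2 to 6 when 1 library was left out; members called higher were 1 to 2 in those fits. The fit with Cbx2-/- replicates 1 and 2 left out takes the spread of the lone Cbx2-/- library from the wild-type group. Its counts of members are therefore not given. Its counts for all tested genes and for related genes are listed below, but they are not read as calls and no conclusion is drawn from them. With the replicate block, Srebf2 had a limma adjusted p of 0.0503 and 4 members were lower. Of all tested genes, 1057 were higher and 998 lower as reported, 598 higher with haemoglobin left out, 634 higher with the replicate block, 2047 higher and 2714 lower with Cbx2-/- replicates 1 and 2 left out, and 367 to 2069 higher and 475 to 1719 lower with 1 library left out. With haemoglobin left out, 980 were lower, and with the replicate block 734. Related genes called higher and lower were 2 and 1 as reported, 0 and 1 with no filter, 1 and 2 under each of the 3 scalings, 3 and 2 with robust empirical Bayes, 0 and 0 with the replicate block, 1 and 0 with a term for Y-linked transcripts, 7 and 4 with Cbx2-/- replicates 1 and 2 left out, and 0 to 8 and 0 to 4 with 1 library left out. Sign changes were seen only in members that did not pass: Mvk at 0.02 without wild-type replicate 1 (-0.397 at the other end with 1 library left out); Mvd at -0.026 and -0.02 without Cbx2-/- or wild-type replicate 3 (up to 0.127); Ggps1 at -0.006 with median-of-ratios scaling and -0.099 and -0.065 without those same libraries (up to 0.088); Sc5d at -0.002 with that scaling, -0.023 and -0.056 without Cbx2-/- replicate 1 or wild-type replicate 2 (up to 0.082), and -0.086 with Cbx2-/- replicates 1 and 2 left out; Dhcr7 at -0.047 with those left out; and Insig2 at -0.181 without Cbx2-/- replicate 3, up to 0.297 without another (log2). The ends in brackets, and the upper end of Insig2, are over the fits with 1 library left out. With Cbx2-/- replicates 1 and 2 left out, the difference was -0.53 for Mvk, 0.19 for Mvd, 0.25 for Ggps1 and 0.63 for Insig2 (log2). The cause of the sign changes was not tested. Genes under 5 FPKM in most libraries have no value under the stricter filter, and FPKM without read counts gives no counting error.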
